A study of Mus musculus with 7 samples.

Results

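The primary cilium of a rod or cone is the outer segment, the stack of photosensitive membrane that is joined to the cell body by a thin connecting cilium, and the 34 genes described here encode parts of that organelle or of its transport system, many of which cilia of other cells use as well. They were taken by name from the count table: every gene symbol that starts with Ift or Bbs and a number, together with Cep290, Rpgr, Rpgrip1, Lca5, Tulp1, Rp1, Rp1l1, Rp2, Mak, Arl3, Arl6 and Ahi1. They make up 34 of the 25655 genes in the table, and all 34 had enough counts to be among the 14750 genes tested. The measurements come from whole retinas of wildtype C57BL/6 mice, collected 2 days after crush of the optic nerve, which injures the axons of retinal ganglion cells. Retinas had received AAV2, an adeno-associated viral vector, that carried Tppp3, the gene of a tubulin-binding protein, in the tested arm (3 libraries) or a control construct with a CMV promoter in the other arm (3 libraries analysed of the 4 samples that the labels name). All 6 retinas were injured and all received vector, so no uninjured or untreated retina was compared. The labels give neither the age and sex of the animals nor the share of cells that the vector reached.

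Intraflagellar transport (IFT) carries cargo along the ciliary axoneme in trains that hold an IFT-B complex, used with kinesin for travel toward the tip, and an IFT-A complex, used with dynein for the return. The BBSome, built from Bardet-Biedl syndrome (BBS) proteins, rides on these trains and moves membrane proteins, and is recruited to membranes by the small GTPase ARL6. At the base of the cilium, transition zone proteins such as CEP290 and the RPGR-RPGRIP1 pair link the microtubules to the membrane and act as a gate. Mutations of many of these genes cause retinal degeneration in people. The axoneme is a bundle of microtubules, the polymer that the TPPP3 protein is known to bind. Photoreceptors are by far the most numerous neurons of the mouse retina, so most signal of the photoreceptor genes in the list comes from cells whose axons the crush did not cut. In RNA of whole retina, fewer cells of a type and less RNA per cell cannot be told apart.

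Promoter sequence was examined in the RefSeq windows of GRCm38.p6, which is not the build (GRCm39) used by the submitters, over the 250 bases before each annotated start. Of the 34 genes, 29 had a window and 5 did not (Ift80, Ift81, Ift122, Rp1 and Rp1l1), and the 29 genes had 34 windows. RFX transcription factors, which are known activators of ciliary genes, bind the X-box, and a relaxed form of it (GTNNCC followed by NGNAAC, with 0 to 3 bases between them, on either strand) was found in 5 of the 34 windows. These windows belonged to 4 genes, Bbs7, Ift22, Ift57 and Lca5, and the 2 windows of Lca5 overlap and hold the same match. The same pattern was present in 14.7% of the windows of these genes and in 4.42% of all 32851 windows. The half-site GTTGCC, which lies inside the matches of Bbs7 and Ift57, was found in 11.8% of the windows of these genes and in 10.4% of all windows. TAATCC, the core of the site for the photoreceptor factors CRX and OTX2, was found in 8.82% of them (Bbs1, Mak and Rpgrip1) and in 6.25% of all windows. The matches are described as letters in a window and not as sites of binding. The windows of the 4 genes with the X-box pattern, of Rpgrip1 with TAATCC close to the start, and of Cep290 and Rpgr, the genes with the smallest p-values below, are printed 5′ to 3′ with every match, on either strand, in capitals (GGATTA is TAATCC on the opposite strand). Lca5 and Rpgr have 2 windows each, of which 1 is printed. No match to any of the 3 patterns lay in the window of Cep290 or in either window of Rpgr.
Bbs7, chr3:36613390-36613639, minus strand: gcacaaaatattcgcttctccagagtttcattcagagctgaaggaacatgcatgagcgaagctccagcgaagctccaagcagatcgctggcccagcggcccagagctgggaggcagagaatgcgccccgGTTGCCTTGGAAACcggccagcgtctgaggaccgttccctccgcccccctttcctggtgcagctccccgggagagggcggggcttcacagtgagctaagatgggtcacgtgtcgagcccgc
Ift22, chr5:136907900-136908149, plus strand: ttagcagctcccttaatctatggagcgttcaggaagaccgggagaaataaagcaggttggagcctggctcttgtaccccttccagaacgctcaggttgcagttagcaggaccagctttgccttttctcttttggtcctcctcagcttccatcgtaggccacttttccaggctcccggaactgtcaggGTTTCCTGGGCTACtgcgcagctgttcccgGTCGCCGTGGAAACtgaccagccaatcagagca
Ift57, chr16:49699044-49699293, plus strand: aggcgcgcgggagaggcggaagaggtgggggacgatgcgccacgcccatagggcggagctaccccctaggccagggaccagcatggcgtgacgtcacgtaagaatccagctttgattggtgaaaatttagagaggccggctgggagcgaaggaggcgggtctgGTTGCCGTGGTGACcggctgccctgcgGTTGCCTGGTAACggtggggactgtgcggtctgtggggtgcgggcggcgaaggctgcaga
Lca5, chr9:83441128-83441377, minus strand: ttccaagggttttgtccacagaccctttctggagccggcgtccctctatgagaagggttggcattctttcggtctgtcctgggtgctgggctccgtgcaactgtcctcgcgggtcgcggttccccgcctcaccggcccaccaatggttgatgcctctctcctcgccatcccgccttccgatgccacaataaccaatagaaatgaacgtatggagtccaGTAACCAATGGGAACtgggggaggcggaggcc
Rpgrip1, chr14:52110653-52110902, plus strand: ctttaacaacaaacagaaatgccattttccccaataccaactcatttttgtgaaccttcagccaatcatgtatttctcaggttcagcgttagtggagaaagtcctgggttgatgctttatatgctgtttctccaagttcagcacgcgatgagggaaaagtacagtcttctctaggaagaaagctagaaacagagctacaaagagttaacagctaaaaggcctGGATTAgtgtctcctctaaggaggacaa
Cep290, chr10:100487332-100487581, plus strand: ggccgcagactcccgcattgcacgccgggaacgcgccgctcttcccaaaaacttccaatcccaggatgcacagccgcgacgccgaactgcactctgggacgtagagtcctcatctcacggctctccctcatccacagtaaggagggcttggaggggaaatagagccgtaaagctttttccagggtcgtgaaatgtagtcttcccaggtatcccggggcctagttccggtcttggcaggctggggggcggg
Rpgr, chrX:10216796-10217045, minus strand: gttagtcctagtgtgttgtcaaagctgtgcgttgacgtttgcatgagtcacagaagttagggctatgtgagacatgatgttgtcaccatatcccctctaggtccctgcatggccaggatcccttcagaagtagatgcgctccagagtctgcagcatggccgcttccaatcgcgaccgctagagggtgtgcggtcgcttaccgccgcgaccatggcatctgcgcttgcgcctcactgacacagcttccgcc

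The targeted gene was higher in every library that received its vector. Tppp3 averaged 44.0 ± 8.81 CPM (counts scaled to a common effective library size) in Tppp3 AAV2 retinas, with 36.5 CPM in the lowest library, and 23.0 ± 4.68 CPM in control AAV2 retinas (SD, n = 3 each), without overlap. Its log2 fold change was 0.94 (SE 0.20), and edgeR's adjusted p was 0.639. Library totals were 19961359 to 21843892 counts in the Tppp3 AAV2 group and 10961443 to 16218074 counts in the control AAV2 group, so every Tppp3 AAV2 library was deeper. The 34 genes together took 0.695% to 0.740% of the counts in Tppp3 AAV2 libraries and 0.703% to 0.733% in control AAV2 libraries. Tissue identity was as labelled: Gnat1, the rod transducin gene, stood between 9912 and 12510 CPM in Tppp3 AAV2 retinas and between 11350 and 12930 CPM in control AAV2 retinas. Multiciliated cells are another possible source of ciliary transcripts. Their 13 marker genes summed to between 77.2 and 93.5 CPM in Tppp3 AAV2 retinas and between 77.8 and 93.04 CPM in control AAV2 retinas. The highest of those tested, Dnah9 and Ccdc39, averaged 38.1 and 30.1 CPM over all libraries, beside 31.9 CPM for Ift88 of the set. The other tested markers averaged from 0.631 CPM (Pifo) to 7.26 CPM (Dnah11). These levels are not corrected for length: the tested markers of known length had a median of 9388 bases, beside 3088 for Ift88. Foxj1, the master regulator gene of multiciliated cells, averaged 4.50 CPM with Tppp3 AAV2 and 5.78 CPM with control AAV2. The part of these cells in the ciliary transcripts was not tested. Pigment epithelium markers varied between libraries within each group, from 59.5 to 229.0 summed CPM over 11 genes in Tppp3 AAV2 retinas and from 46.7 to 214.3 in control AAV2 retinas. Y-linked transcripts showed males and females within each group: Ddx3y had 70.8 CPM in Tppp3 AAV2 replicate 2 and 70.4 CPM in control AAV2 replicate 1, and at most 0.762 CPM in the other libraries.

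No gene of the ciliary set passed the test between the groups. In edgeR's quasi-likelihood test with Benjamini-Hochberg adjustment over all 14750 genes, 0 of the 34 genes had an adjusted p under 0.05, against 0.0136% of all genes tested. The smallest adjusted p among them was 0.639. At an unadjusted p under 0.05 there were 2 of 34 (5.88%), both higher with Tppp3 AAV2, against 7.23% of all genes tested, with 3.67% of all genes in the higher and 3.55% in the lower direction. DESeq2's Wald test, which called 0.0949% of all genes, and limma's voom with quality weights, which called 0%, each called 0 of the 34. The log2 fold changes ran from -0.17 to 0.21 with a median of -0.029, beside a median of 0.0030 over all genes tested. Of the 34 genes 14 had a positive fold change (41.2%) and 20 a negative one, while 50.9% of all genes tested were positive. An absolute log2 fold change above 0.2 was found for 1 of the 34 (2.94%) and for 19.4% of all genes. These shares were not matched for expression level or for standard error.

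The standard errors of these genes were smaller than those of all genes at the median. The median standard error of the log2 fold change was 0.067 over the 34 genes and 0.097 over all genes tested. The 95% interval of the log2 fold change, taken one gene at a time and not adjusted for the number of genes, lay within ±0.5 for 33 of the 34 genes and within ±0.25 for 22 of them. The exception at ±0.5 was Arl6, with an interval of -0.61 to 0.45. Groups did not overlap for 4 of the 34 genes (11.8%), with Cep290, Rpgr and Ift46 higher and Ift81 lower in Tppp3 AAV2 libraries, against 13.9% of all genes tested, of which 6.92% were higher and 7.02% lower. Leaving out single libraries gave between 1 and 5 genes lower without overlap. The 5 arose when Tppp3 AAV2 replicate 3 or control AAV2 replicate 1 was left out. Smaller groups separate more readily by order alone, and the share over all genes was not counted for these fits. These counts, given for the lower side only, therefore have no background beside them and were not read as a tendency. Both shares with all libraries, of genes without overlap and of genes at an unadjusted p under 0.05, were near those of all genes.

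**Figure D1:**
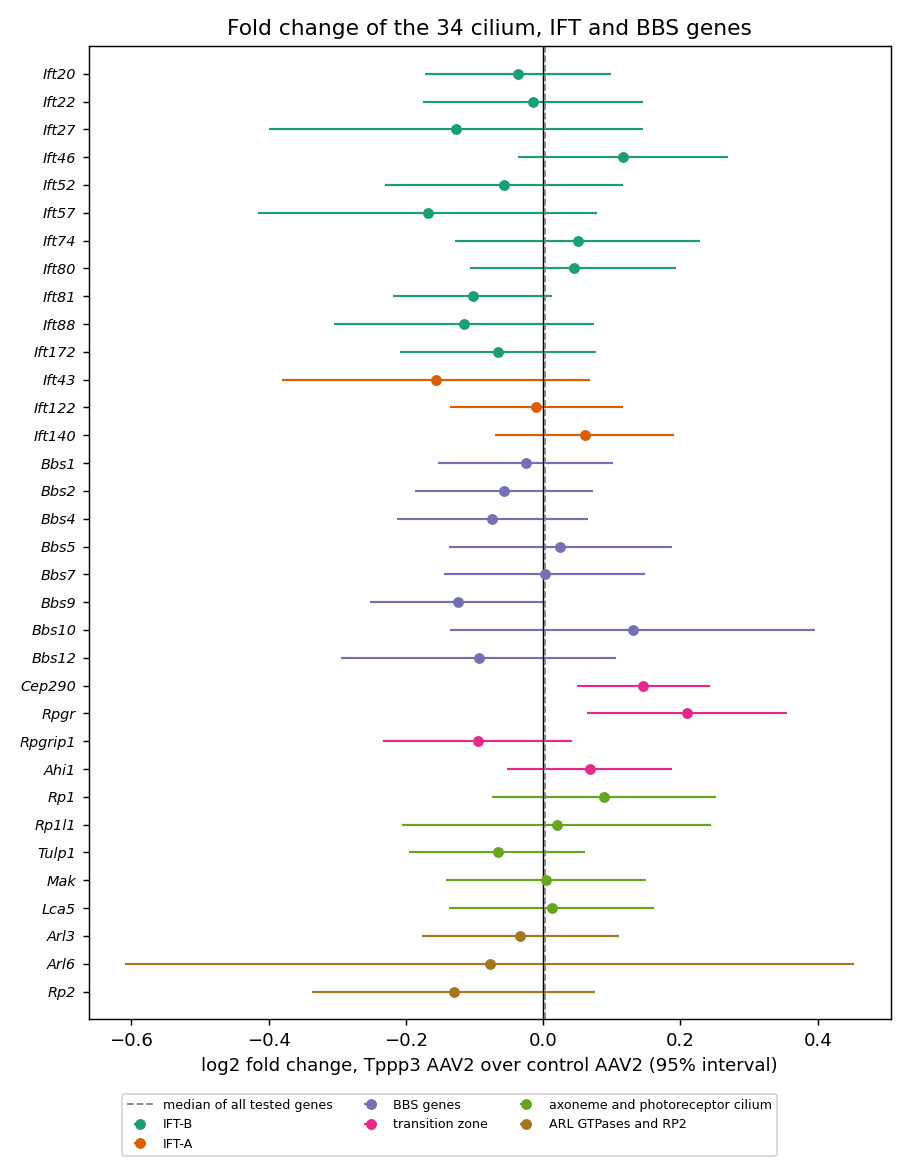
Log2 fold change of each of the 34 genes, Tppp3 AAV2 over control AAV2, with the 95% interval from edgeR's quasi-likelihood fit (n = 3 libraries per group), coloured by role. The intervals of Cep290 and Rpgr lie to the right of 0, that of Arl6 is the widest, and the dashed line marks the median of all genes tested at 0.0030.

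Of the photoreceptor genes, Tulp1 and Rp1 led the set in level, while Lca5 stood at rank 18 with 22.4 CPM per kilobase. Corrected for transcript length, the mean over the 6 libraries ran from 4.18 CPM per kilobase for Rp2 to 597 for Tulp1. Tulp1, a phosphoinositide-binding protein needed for transport of proteins toward the outer segment, stood at 583 CPM per kilobase in Tppp3 AAV2 retinas and 611 in control AAV2 retinas. Rp1, a doublecortin-domain protein that binds axonemal microtubules and aligns the discs, followed at 272 CPM per kilobase with Tppp3 AAV2 and 256 with control AAV2. Arl3, a small GTPase that releases lipid-anchored proteins inside the cilium, was at 200.5 CPM per kilobase with Tppp3 AAV2 and 205 with control AAV2, and Rpgrip1 at 139 and 148.5. IFT subunits lay lower: within IFT-B, Ift20 had the highest mean over all libraries, 40.5 CPM per kilobase, and Ift46 the lowest, 7.60. The subunits of the BBSome ran from 22.4 CPM per kilobase for Bbs1 to 70.6 for Bbs7, while the chaperonin-like genes Bbs10 and Bbs12, which help to assemble it, stood at 4.77 and 17.5. Each length is that of the longest protein-coding transcript of the gene in GENCODE M21, so a gene whose retinal form is shorter is placed too low. The order of the leading genes, Tulp1, Rp1, Arl3 and Rpgrip1, was the same in both group means.

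**Figure D2:**
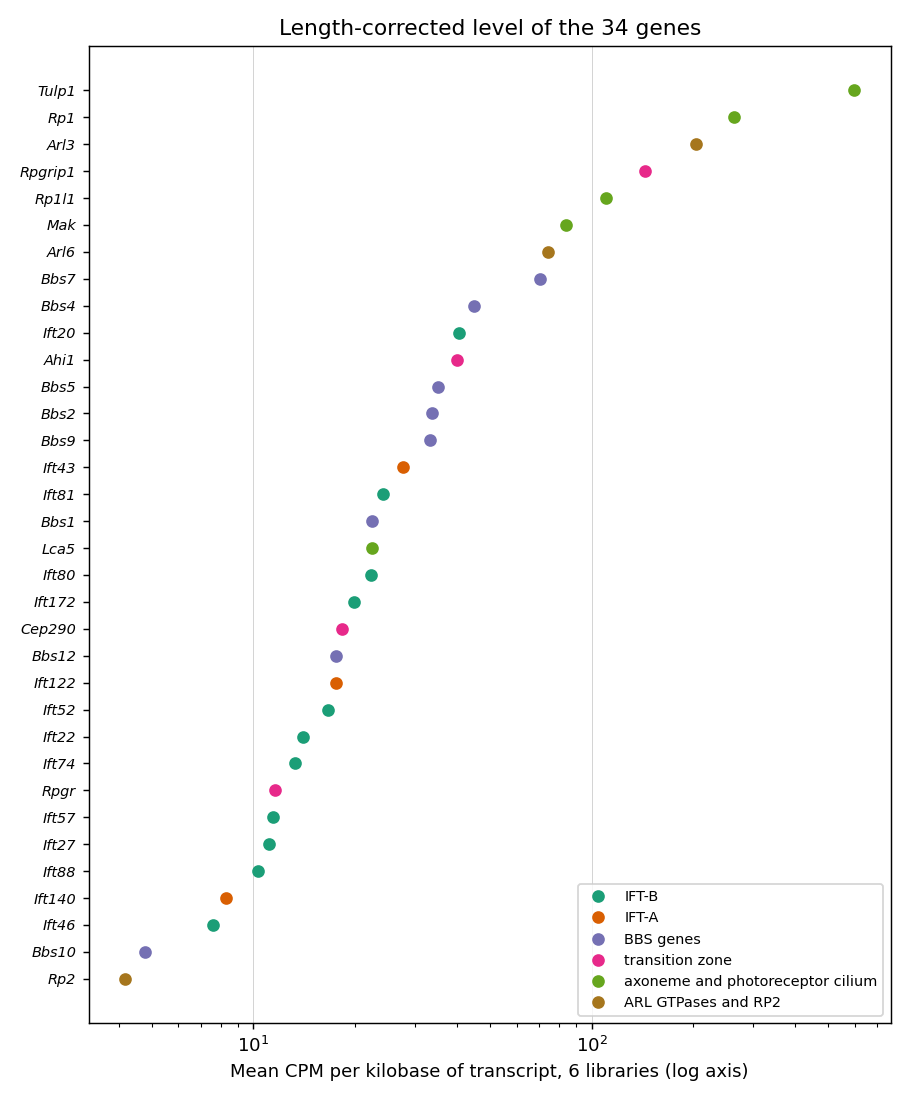
Mean level of each gene over the 6 libraries in CPM per kilobase of transcript, on a log axis, ordered from high to low and coloured by role. Tulp1 and Rp1 lead at 597 and 264 CPM per kilobase, and Bbs10 and Rp2 are lowest at 4.77 and 4.18.

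Of the 4 transition zone genes, 3 had positive fold changes, with a median of 0.11 (0.043 with offsets for GC content and length), and Cep290 and Rpgr were higher with Tppp3 AAV2 by small amounts that did not pass the adjusted test. Cep290 encodes the large protein of the Y-shaped links between microtubules and membrane. It had 158.7, 155.7 and 157.9 CPM in Tppp3 AAV2 retinas, against 141.4, 142.9 and 142.5 CPM in control AAV2 retinas. The groups did not overlap, and the spread inside each was small, with means of 157.4 ± 1.59 and 142.3 ± 0.797 CPM (SD, n = 3 each). The log2 fold change of Cep290 was 0.15 ± 0.044 (SE); edgeR's test gave it an unadjusted p of 0.00702 and an adjusted p of 0.639. By p it ranked 151 among all genes. The exact permutation p over the 6 libraries was 0.1 (two-sided), which is the lowest value this design can reach.

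The transcript of Cep290 is long and GC-poor, and its fold change was smaller in a fit with terms for both properties. It has 8211 bases and 38.7% GC, beside medians of 3220 bases and 50.2% over all genes tested. The trend of expression on GC content and length, fitted over all genes, gave a transcript of this kind a value 0.096 higher in Tppp3 AAV2 libraries on the log2 scale. With offsets for that trend, the log2 fold change of Cep290 was 0.050 (unadjusted p = 0.278, edgeR adjusted p = 0.952). Over all alternatives its adjusted p ranged from 0.469 to 0.999.

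Rpgr, whose product sits in the connecting cilium and acts on the GTPase RAB8A, had 47.7, 47.4 and 46.4 CPM in Tppp3 AAV2 retinas, against 39.1, 43.5 and 39.6 CPM in control AAV2 retinas. All Tppp3 AAV2 libraries lay above all control AAV2 libraries. The means were 47.1 ± 0.701 and 40.7 ± 2.40 CPM (SD, n = 3 each), and the log2 fold change was 0.21 ± 0.066 (SE), with an unadjusted p of 0.00908 and an adjusted p of 0.642 in edgeR's test. With the offsets for GC content and length it was 0.17 (unadjusted p = 0.0306, adjusted p = 0.887), and over all alternatives it stayed between 0.17 and 0.26. Rpgr is X-linked and both groups mixed males with females. With sex as a covariate its log2 fold change was 0.21 (unadjusted p = 0.0135).

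The other transition zone genes, Rpgrip1 and Ahi1, had overlapping groups. Rpgrip1, which anchors RPGR in the connecting cilium, had 707.6, 723.1 and 812.5 CPM in Tppp3 AAV2 retinas, against 793.3, 828.0 and 775.1 CPM in control AAV2 retinas. The groups overlapped, and its log2 fold change was -0.095 ± 0.062 (SE; edgeR adjusted p = 0.787). Ahi1, a Joubert syndrome gene that works with the transition zone, averaged 198.6 ± 11.3 CPM with Tppp3 AAV2 and 189.6 ± 6.79 CPM with control AAV2 (SD, n = 3 each), a log2 fold change of 0.068 (edgeR adjusted p = 0.831). Whether Rpgr and Rpgrip1 differ from each other in their fold change was not tested.

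**Figure D3:**
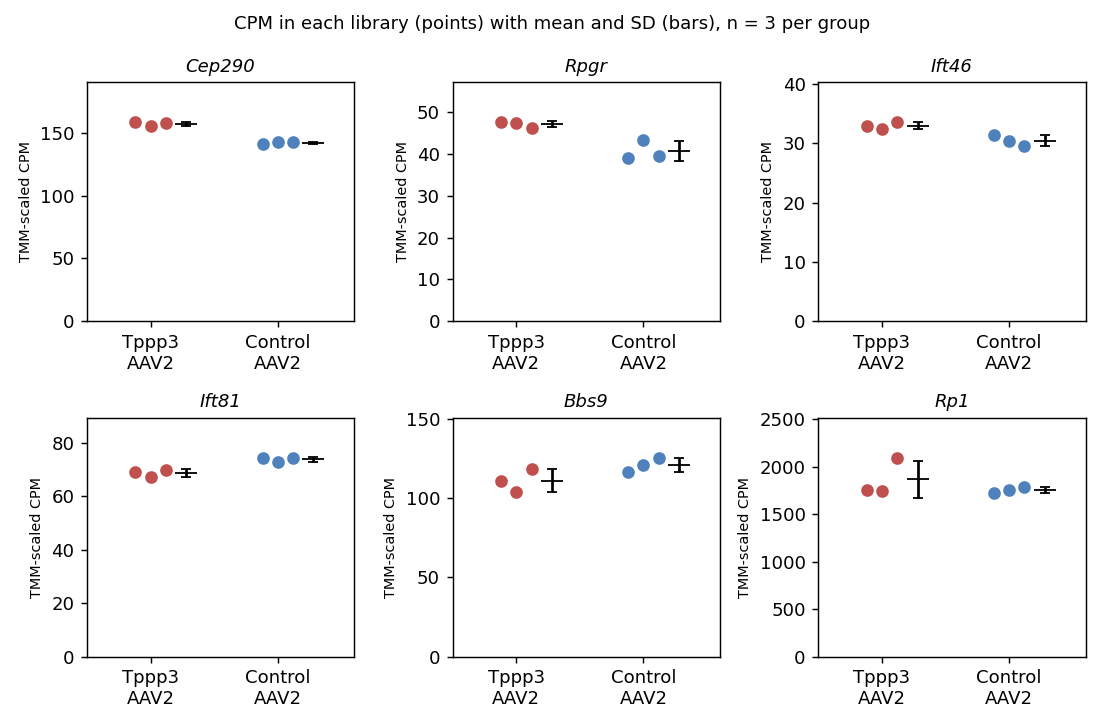
TMM-scaled CPM of Cep290, Rpgr, Ift46, Ift81, Bbs9 and Rp1 in each library, with Tppp3 AAV2 on the left of each panel and control AAV2 on the right, and the mean and SD as bars (n = 3 per group). The groups do not overlap for Cep290, Rpgr, Ift46 and Ift81 and overlap for Bbs9 and Rp1, and every axis starts at 0.

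Of the 11 IFT-B genes 3 were positive, and their log2 fold changes had a median of -0.057. Their summed level was 523.5, 514.8 and 527.1 CPM in Tppp3 AAV2 retinas, against 556.4, 522.4 and 528.4 CPM in control AAV2 retinas. Ift46, known in the alga Chlamydomonas as needed for a stable complex, had 33.0, 32.4 and 33.5 CPM in Tppp3 AAV2 retinas, against 31.4, 30.3 and 29.5 CPM in control AAV2 retinas. The groups did not overlap, with a log2 fold change of 0.12 ± 0.070 (SE; unadjusted p = 0.122, edgeR adjusted p = 0.767). Ift81, which with IFT74 binds tubulin as cargo, had 69.1, 67.3 and 70.0 CPM in Tppp3 AAV2 retinas, against 74.4, 72.7 and 74.5 CPM in control AAV2 retinas. Here every Tppp3 AAV2 library was the lower, with a log2 fold change of -0.10 ± 0.053 (SE; unadjusted p = 0.0768, edgeR adjusted p = 0.730). With the offsets for GC content and length the unadjusted p of Ift81 was 0.0286 and its edgeR adjusted p 0.887. Ift74, the partner in tubulin binding, averaged 28.9 ± 1.89 CPM with Tppp3 AAV2 and 27.97 ± 1.31 CPM with control AAV2 (SD, n = 3 each; log2 fold change 0.051, edgeR adjusted p = 0.927).

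The IFT-B gene with the highest CPM was Ift172, a large subunit at the edge of the complex. It had 113.7, 95.1 and 105.5 CPM in Tppp3 AAV2 retinas, against 112.2, 107.7 and 109.1 CPM in control AAV2 retinas, and the groups overlapped (log2 fold change -0.066, edgeR adjusted p = 0.869). Ift88, whose partial loss gives the Tg737 mouse its shortened cilia and photoreceptor degeneration, averaged 30.6 ± 0.942 CPM with Tppp3 AAV2 and 33.2 ± 3.49 CPM with control AAV2 (SD, n = 3 each; log2 fold change -0.12, edgeR adjusted p = 0.809). Ift57 had a log2 fold change of -0.17 ± 0.11 (SE; edgeR adjusted p = 0.789), with 24.8, 32.5 and 26.9 CPM in Tppp3 AAV2 retinas, against 29.9, 29.5 and 35.3 CPM in control AAV2 retinas. Its fold change was -0.29 without Tppp3 AAV2 replicate 2, -0.082 without control AAV2 replicate 3 and -0.064 with the pigment epithelium covariate added after seeing the data. The log2 fold changes of the other IFT-B genes were -0.13 for Ift27, -0.057 for Ift52, -0.037 for Ift20, -0.015 for Ift22 and 0.044 for Ift80, and the groups overlapped for each.

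The IFT-A genes had overlapping groups throughout. Ift122 had the highest level by count, with 72.1, 68.4 and 75.1 CPM in Tppp3 AAV2 retinas, against 71.4, 71.6 and 74.1 CPM in control AAV2 retinas. Its log2 fold change was -0.0099 ± 0.057 (SE; edgeR adjusted p = 0.984), with an interval of -0.14 to 0.12. Ift140, mutated in human ciliopathies that include retinal dystrophy, had 58.7, 57.2 and 60.97 CPM in Tppp3 AAV2 retinas, against 54.7, 56.6 and 58.4 CPM in control AAV2 retinas (log2 fold change 0.060, edgeR adjusted p = 0.865). Ift43 had 20.6, 18.3 and 22.7 CPM in Tppp3 AAV2 retinas, against 21.6, 24.8 and 22.0 CPM in control AAV2 retinas (log2 fold change -0.16, edgeR adjusted p = 0.787).

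Of the 8 genes of the BBSome and its chaperones 3 were positive, and their log2 fold changes had a median of -0.041. Their summed level was 752.4, 702.3 and 774.7 CPM in Tppp3 AAV2 retinas, against 777.3, 763.7 and 755.8 CPM in control AAV2 retinas. Bbs9, a scaffold subunit, had 110.8, 103.8 and 118.2 CPM in Tppp3 AAV2 retinas, against 116.6, 120.8 and 125.5 CPM in control AAV2 retinas. One library of each group crossed into the range of the other, and the log2 fold change was -0.12 ± 0.058 (SE; unadjusted p = 0.0559, edgeR adjusted p = 0.699). With the offsets for GC content and length the log2 fold change of Bbs9 was -0.13 (unadjusted p = 0.0391, edgeR adjusted p = 0.887). Bbs7 had the highest level of the BBS genes, with 203.8, 170.9 and 194.4 CPM in Tppp3 AAV2 retinas, against 198.7, 183.4 and 186.1 CPM in control AAV2 retinas. Its log2 fold change was 0.0025 ± 0.067 (SE; edgeR adjusted p = 0.996), with an interval of -0.14 to 0.15. Bbs4, a subunit that binds the centriolar satellite protein PCM1, had 115.5, 103.0 and 111.6 CPM in Tppp3 AAV2 retinas, against 124.8, 112.9 and 109.8 CPM in control AAV2 retinas (log2 fold change -0.074, edgeR adjusted p = 0.839). With the level of pigment epithelium markers as a covariate, added after seeing the data, the log2 fold change of Bbs4 was -0.15 (unadjusted p = 0.0151, edgeR adjusted p = 0.573). Of the remaining subunits, Bbs1 stood at -0.025, Bbs2 at -0.057 and Bbs5 at 0.025 on the log2 scale, and the chaperonin-like genes Bbs10 and Bbs12 at 0.13 and -0.094, all with overlapping groups.

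**Figure D4:**
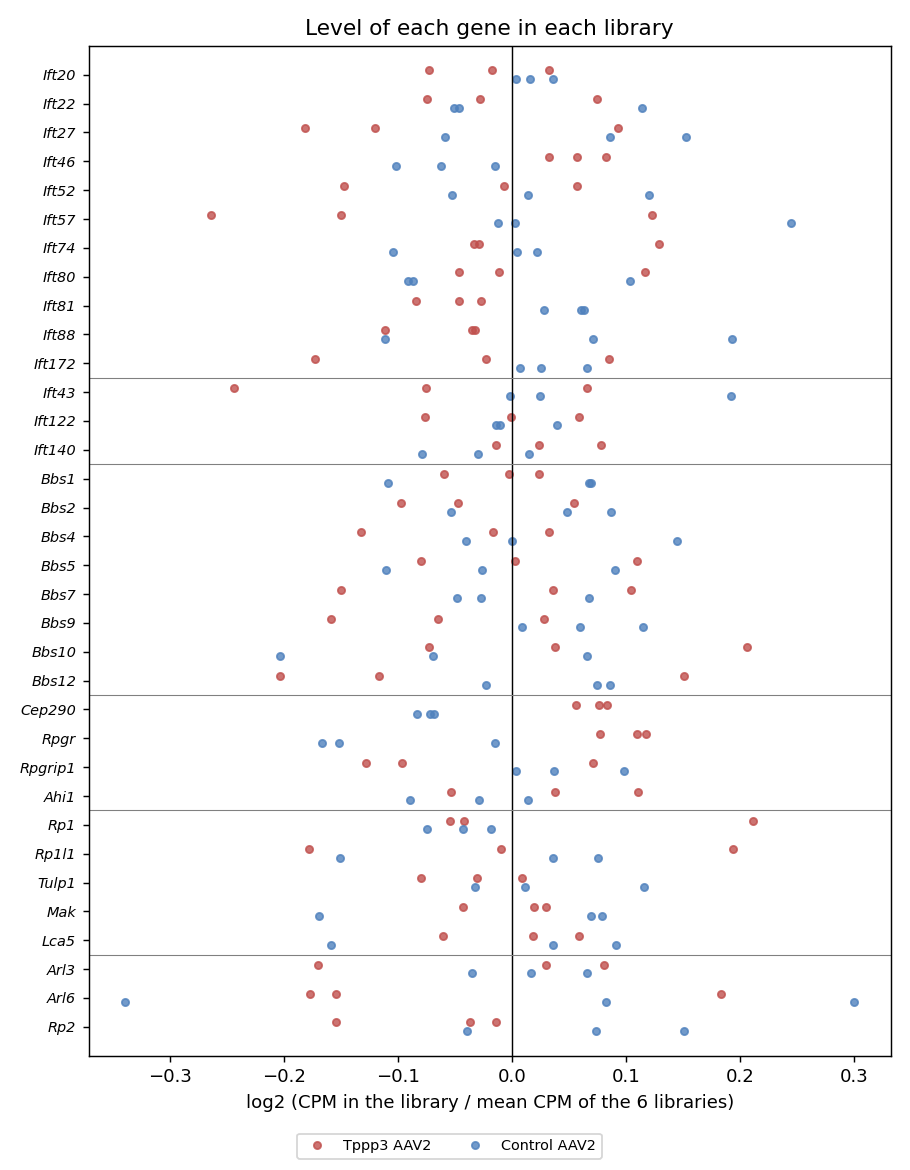
Level of each gene in each library as log2 of its CPM over its mean of the 6 libraries, with the 3 Tppp3 AAV2 libraries drawn above the 3 control AAV2 libraries and lines between roles. Points of the 2 groups are mixed for 30 of the 34 genes, and those of Arl6 are spread the farthest.

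The genes of the axoneme and of photoreceptor cilia, which carry most of the counts of the set, had overlapping groups throughout. Their summed level was 4172, 4013 and 4484 CPM in Tppp3 AAV2 retinas, against 4063, 4300 and 4110 CPM in control AAV2 retinas, and 4 of the 5 fold changes were positive, with a median of 0.012. Rp1 had 1759, 1744 and 2097 CPM in Tppp3 AAV2 retinas, against 1720, 1758 and 1788 CPM in control AAV2 retinas. Tppp3 AAV2 replicate 3 alone was above the controls' range, and the log2 fold change was 0.088 ± 0.074 (SE; edgeR adjusted p = 0.838), or -0.0043 without that library. Rp1l1, the relative of RP1 that works with it on the axoneme, had 845.4, 653.3 and 734.4 CPM in Tppp3 AAV2 retinas, against 757.9, 779.0 and 665.9 CPM in control AAV2 retinas. The groups overlapped and its log2 fold change was 0.019 ± 0.098 (SE; edgeR adjusted p = 0.983).

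Tulp1 had 1181, 1222 and 1256 CPM in Tppp3 AAV2 retinas, against 1220, 1352 and 1258 CPM in control AAV2 retinas. Its groups overlapped, with a log2 fold change of -0.067 ± 0.058 (SE; edgeR adjusted p = 0.843). Mak, a kinase that restrains the length of photoreceptor cilia and phosphorylates RP1, had 290.4, 305.4 and 303.1 CPM in Tppp3 AAV2 retinas, against 266.0, 316.0 and 313.9 CPM in control AAV2 retinas (log2 fold change 0.0044, edgeR adjusted p = 0.992). Lca5, which encodes lebercilin, an IFT-binding protein of the axoneme, had 96.9, 89.3 and 94.3 CPM in Tppp3 AAV2 retinas, against 99.1, 95.4 and 83.4 CPM in control AAV2 retinas (log2 fold change 0.012, edgeR adjusted p = 0.983). For Mak and Lca5 the intervals were -0.14 to 0.15 and -0.14 to 0.16. Rod markers outside the set were negative in 18 of 19 genes with a median of -0.063, and 0 of them passed the edgeR test. Their summed level was 77600, 65060 and 77800 CPM in Tppp3 AAV2 retinas, against 83260, 75650 and 74210 CPM in control AAV2 retinas. Tppp3 AAV2 replicate 2 alone was below the controls' range. Their part in these values was not tested.

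The GTPase genes Arl3 and Arl6 and the GTPase-activating gene Rp2 had negative fold changes and overlapping groups, with a median log2 fold change of -0.078. Arl3 had 208.0, 181.1 and 215.5 CPM in Tppp3 AAV2 retinas, against 198.9, 213.3 and 206.2 CPM in control AAV2 retinas (log2 fold change -0.033 ± 0.065 (SE), edgeR adjusted p = 0.945). Rp2, the X-linked GTPase-activating protein of ARL3, had 18.3, 18.6 and 16.9 CPM in Tppp3 AAV2 retinas, against 18.3, 19.8 and 20.9 CPM in control AAV2 retinas. Its log2 fold change was -0.13 ± 0.094 (SE; edgeR adjusted p = 0.802). With the offsets for GC content and length it was -0.22 (unadjusted p = 0.0599, adjusted p = 0.915), within a range of adjusted p from 0.655 to 0.999 over all alternatives. The transcript of Rp2 had the lowest GC content of the set, 35.9%.

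Arl6, the GTPase that brings the BBSome to membranes, varied more between libraries of the same group than any other gene of the set, and was singled out after its values were seen. It had 113.5, 143.4 and 111.7 CPM in Tppp3 AAV2 retinas, against 99.8, 133.7 and 155.5 CPM in control AAV2 retinas. Replicate 2 was the highest of the Tppp3 AAV2 group and replicate 1 the lowest of the control AAV2 group. The SD within groups was 0.27 on the log2 scale, beside 0.012 for Cep290 and 0.17 for Ift57, the next most variable gene, and it exceeded that of 83.7% of all genes tested. The log2 fold change was -0.078 ± 0.20 (SE; edgeR adjusted p = 0.962). It was 0.070 without control AAV2 replicate 3 and -0.24 without control AAV2 replicate 1, so its sign rested on 1 library.

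Libraries with less Arl6 had more RNA of pigment epithelium markers and less of Fgf2 and of microglia markers. The libraries with the least Arl6, Tppp3 AAV2 replicates 1 and 3 and control AAV2 replicate 1, held 229.0, 217.0 and 214.3 summed CPM of the 11 pigment epithelium markers, and the other libraries held 46.7 to 59.5. The same libraries had 94.7, 74.0 and 68.1 CPM of Fgf2, a growth factor gene known to respond to retinal injury, and the others had 168.1 to 222.8. The 10 microglia markers summed to 163.7 and 138.7 CPM in Tppp3 AAV2 replicates 1 and 3 and to 148.5 in control AAV2 replicate 1, against 231.6 to 264.0 CPM in the other libraries. The split was not particular to Arl6. Mak had 266.0 to 303.1 CPM in the libraries with the least Arl6 and 305.4 to 316.0 CPM in the others. Ift20 and Rp2 were also lower in each of the libraries with the least Arl6 than in any other, and Bbs7 was higher. Outside the set, Sag, Gnb3, Pcdh15, Dnah9 and Rfx2 were lower there too. The genes that follow this split were not counted. When the level of the pigment epithelium markers entered the fit as a covariate, an alternative chosen after seeing the data, the log2 fold change of Arl6 was 0.17 (unadjusted p = 0.0194, edgeR adjusted p = 0.581), a change of sign. Over all alternatives the adjusted p of Arl6 ranged from 0.581 to 0.999.

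**Figure D5:**
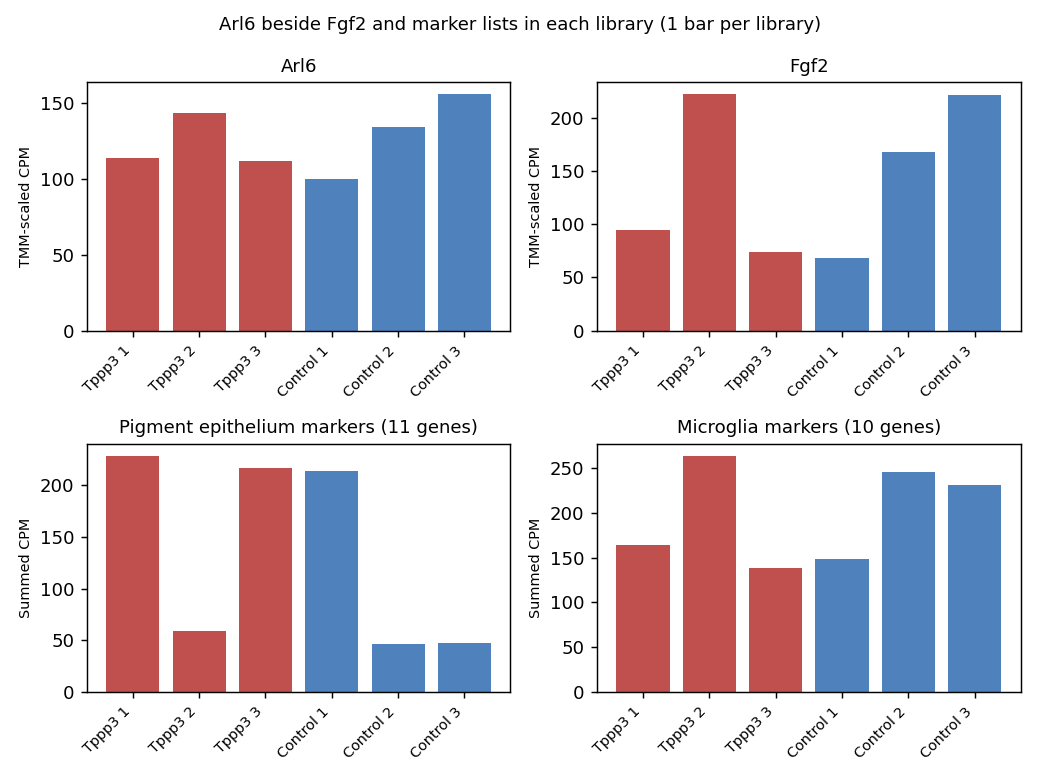
CPM of Arl6 and Fgf2 and summed CPM of the pigment epithelium and microglia markers, 1 bar per library, with the Tppp3 AAV2 libraries on the left of the control AAV2 libraries. Arl6, Fgf2 and the microglia markers are high in Tppp3 AAV2 replicate 2 and control AAV2 replicates 2 and 3, where the pigment epithelium markers are low.

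Other genes of the ciliary pathway gave the same count of calls. Of 122 tested genes in 8 further lists, 0 passed the adjusted threshold in either direction, 51 had a positive and 71 a negative fold change, and the median log2 fold change was -0.014. At an unadjusted p under 0.05 there were 11 (9.02%), 4 higher and 7 lower, against 7.23% of all genes tested, and 21 had groups without overlap (17.2%) against 13.9%. The list of IFT subunits under other symbols, which also holds Rabl2, Tulp3 and Wdr11, genes that are not core subunits, was positive in 2 of 12, with a median of -0.078. The positive genes were Wdr19 (0.021), an IFT-A subunit, and Tulp3 (0.23), an adaptor that binds IFT-A, named here after their values were seen. The smallest p-values there belonged to Ttc30a1 (log2 fold change -0.16, edgeR adjusted p = 0.754), which encodes an IFT-B subunit, and Wdr35 (-0.076, adjusted p = 0.812), an IFT-A subunit.

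The list of IFT motor genes was positive in 5 of 13 with a median of -0.011. It also holds Kif3c and the light chain genes Dynll1, Dynlrb1 and Dynlt1b, which are not particular to IFT. Kif3a, a motor subunit of the anterograde kinesin, averaged 98.8 ± 5.31 CPM with Tppp3 AAV2 and 90.7 ± 6.01 CPM with control AAV2 (SD, n = 3 each; log2 fold change 0.12, edgeR adjusted p = 0.730). Dynlt2b, a light chain of the retrograde dynein, averaged 9.38 ± 1.06 CPM with Tppp3 AAV2 and 12.2 ± 1.85 CPM with control AAV2 (SD, n = 3 each; log2 fold change -0.37, edgeR adjusted p = 0.661). The list of BBSome genes under other symbols and of partners of the BBSome was positive in 8 of 11 with a median of 0.048. The smallest p-values in it were those of Rab3ip (0.13, edgeR adjusted p = 0.688), the exchange factor of RAB8, and the satellite gene Pcm1 (0.10, adjusted p = 0.755). Mkks had the largest fold change of the list (0.22, edgeR adjusted p = 0.756).

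Transition zone genes outside the set were mostly on the negative side, 16 of 20, with a median of -0.065. Tctn3, of the tectonic family, averaged 23.6 ± 0.995 CPM with Tppp3 AAV2 and 27.98 ± 1.53 CPM with control AAV2 (SD, n = 3 each; log2 fold change -0.24, edgeR adjusted p = 0.648). Basal body genes were positive in 9 of 18, with a median of 0.0013; Ttbk2, a kinase that starts ciliogenesis, stood at 0.16 (adjusted p = 0.648) and Cby1 at -0.21 (adjusted p = 0.673).

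Genes of lipid-anchored cargo and small GTPases were positive in 6 of 15 with a median of -0.014. Arl2, the relative of Arl3, averaged 25.7 ± 0.216 CPM with Tppp3 AAV2 and 30.2 ± 1.82 CPM with control AAV2 (SD, n = 3 each; log2 fold change -0.23, edgeR adjusted p = 0.648), and Rab11a stood at 0.13 (adjusted p = 0.684). Axoneme and disc genes were positive in 11 of 23 with a median of -0.0070, with Usp48 at 0.13 (adjusted p = 0.673) and the ciliary kinase gene Cdk20 at -0.23 (adjusted p = 0.682). Among transcription factors, 6 of 11 were positive with a median of 0.011, and Rfx7 and Rfx1 stood at 0.17 (adjusted p = 0.648) and -0.12 (adjusted p = 0.692).

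Cell type markers were read beside these values, and 0 passed the adjusted threshold in any list. The median log2 fold change was -0.037 over 12 cone genes (Gnat2 -0.11, Cngb3 0.19), 0.0051 over 14 ganglion cell genes (Eomes 0.36, Pou4f1 -0.17) and 0.11 over 10 Müller glia genes (Aqp4 0.28, Glul 0.26). It was -0.16 over 10 microglia genes (Aif1 -0.28, C1qb -0.26), -0.11 over 9 multiciliated cell genes (Foxj1 -0.36, Ccdc39 0.19), 0.88 over 9 pigment epithelium genes (Slc45a2 1.26, Pmel 1.11) and 1.57 over 5 lens genes (Crygs 1.75, Cryba1 1.57). The lens value rested on 1 library: the 8 lens markers summed to 25.3 CPM in Tppp3 AAV2 replicate 1, to 2.43 and 5.08 CPM in the other Tppp3 AAV2 libraries, and to 1.72 to 6.27 CPM in control AAV2 libraries. In the rod list Sag stood at -0.24 and Pde6g at -0.11. Their part in the values of the ciliary genes was not tested.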

How the data were processed

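The authors deposited whole-number counts for each gene symbol, with no scaling visible in the values. GRCm39 (mm39) is the build in the submitters' processing notes; no aligner, counting tool, annotation or strand option is named there, so overlapping or near-identical genes may share reads. Poly(A) RNA of each retina was sequenced, per the labels' protocols. The labels name 3 Tppp3 AAV2 and 4 control AAV2 samples, the treatment protocol gives the reverse, and the labels were followed. Columns matched by title gave 3 libraries per group. The fourth control sample had no column under its title and was not analysed here. The counts held 1 more column, named as a Tppp3 library, that matched no sample title and was not used. Whether it belongs to the fourth labelled control sample cannot be told here. Separate animals are not stated, so p-values measure the spread between these samples.

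Genes were filtered with filterByExpr and scaled by TMM. The contrast was Tppp3 AAV2 over control AAV2 in edgeR's robust quasi-likelihood test (two-sided), with Benjamini-Hochberg adjustment over 14750 genes at 0.05, and the procedure was tested on simulated data. Each SE was derived from the fitted log2 value and its F statistic. The versions used were edgeR 4.0.16, DESeq2 1.42.0, mgcv 1.9.3 and limma 3.58.1 under R 4.3.3, and Python 3.11.15.

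The members and lists were chosen with earlier results of these data known. Per-library values are given for 6 photoreceptor genes, the most abundant gene and the 2 of smallest p in each role, and genes at an unadjusted p under 0.05; Arl6 and Ift57 were added after their values were seen. The 2 genes of smallest p are named in each further list, except 1 gene that is not reported here. Alternatives were another normalization (DESeq2), other tests (DESeq2, voom), other filters, each library left out, a replicate block, a sex covariate from Y-linked counts, thinning, offsets for GC content and length (GENCODE M21, known for 97.9% of tested genes and all 34 members), and no robust option.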

Additional observations from a re-analysis of the deposited data

How the results depend on the processing

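No setting called any of the 34 genes. The intervals given for each gene are not adjusted, and with 3 libraries per group even Tppp3, at a log2 fold change of 0.94, was not called by edgeR's test, so differences beyond those intervals could also go uncalled. Deviations of same-numbered libraries from their group means had correlations of -0.046, 0.077 and -0.31 over genes. Not every library correlated best with its own number. With 3 libraries per group such deviations are not independent, so a pairing by number cannot be judged from them. The main fit used no pairing. With the replicate block 1 gene in the whole table was called as lower, against 2 without it, and Bbs7 stood at -0.0011. Over all genes, the calls were 2 higher and 12 lower with DESeq2's Wald test, where Tppp3 passed (log2 fold change 0.94, adjusted p = 1.33e-05, against 0.639 in edgeR's test), and 6 lower with no filter on low counts. They were 1 lower after thinning, 1 higher with the pigment epithelium covariate (added after seeing the data), and 0 lower with voom, with the sex covariate, without the robust option, and with the GC and length offsets together with the block. With single libraries left out they ran from 0 to 2 higher and from 0 to 1 lower. The median log2 fold change of the 34 genes was -0.058 with the pigment epithelium covariate. With the GC and length offsets, alone and with the block, the median of the 4 transition zone genes was 0.043 and 0.043, against 0.11 without them, and that of the axoneme and disc list was -0.051 and -0.055. With the pigment epithelium covariate that list stood at -0.049 and the transcription factor list at 0.051. The cause of these moves was not tested.

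Fold changes close to 0 changed sign. Beside Arl6 and the genes listed below, those of Ift20, Ift22, Ift74, Ift80, Bbs1 and Bbs5 also changed sign in some alternative. Ift80, for example, ran from -0.019 to 0.11 over all alternatives. With the GC and length offsets, alone and then with the block, Bbs7 stood at -0.010 and -0.013, Rp1l1 at -0.0023 and -0.0073, Mak at -0.012 and -0.0079, Lca5 at -0.025 and -0.022, and Arl3 at 0.030 and 0.025. With the pigment epithelium covariate Bbs7, Rp1l1 and Lca5 stood at -0.077, -0.066 and -0.054. Mak stood at -0.011 with voom and -0.016 after thinning, and Bbs7 at -3.1e-04 among genes that averaged 1 CPM or more and -2.7e-06 with the sex covariate. With single libraries left out, log2 fold changes ran from -0.085 to 0.038 for Arl3, -0.057 to 0.073 for Bbs7, -0.044 to 0.025 for Ift122, -0.057 to 0.059 for Lca5, -0.075 to 0.048 for Mak, -0.0043 to 0.14 for Rp1 and -0.087 to 0.11 for Rp1l1. Medians ran from -0.18 to -0.033 for the GTPase genes, -0.046 to 0.048 for the axoneme genes and -0.042 to 0.0078 for the axoneme and disc list. They ran from -0.0069 to 0.059 for the list of other BBSome genes and partners and from -0.097 to -0.036 for the list of other IFT genes. For the further transition zone genes they ran from -0.086 to -0.026. The number of genes whose groups did not overlap on the lower side ran from 1 to 5, with no share over all genes counted for these fits.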
